A study of Caenorhabditis elegans with 2 samples.

Results

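The ribosomal protein genes of *Caenorhabditis elegans* were examined in a map of the zinc finger protein ZTF-11 made by chromatin immunoprecipitation and sequencing (ChIP-seq). They were taken as all protein-coding genes named *rpl-* (large subunit) or *rps-* (small subunit) in the WBcel235 annotation, which gave 78 of 19973 protein-coding genes on the nuclear chromosomes. Of these, 47 were *rpl* and 31 were *rps* genes, and 13 held at least 1 annotated small nucleolar RNA (snoRNA) gene inside their span. The series had 1 group, whole L4 larvae of both sexes from strain OP236, with 2 biological replicates. The strain carries the allele *unc-119(ed3)* on chromosome III and the transgene insertion wgIs236, which targets *ztf-11*, and the protein precipitated was an eGFP fusion of ZTF-11. Every sample shared this genotype, and there was no second stage, strain or treatment to compare. The labels give neither the promoter that drives the fusion nor its copy number, and a peak from whole animals cannot be placed in a cell type.

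Ribosomal proteins and ribosomal RNA together form the cytoplasmic ribosome, and the genes for the proteins are among the most strongly and evenly expressed genes of growing animals. Some of these genes carry snoRNA genes in their introns, which guide the modification of ribosomal RNA. ZTF-11 is the worm member of the Myt1 family, known mainly as repressors of non-neuronal genes in developing neurons. Many *C. elegans* transcripts, ribosomal protein mRNAs among them, are trans-spliced, so an annotated 5′ end can lie downstream of the true start of transcription.

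For each gene the value used was the highest peak signal with a summit in the promoter window, which reached 1000 bp upstream and 200 bp downstream from any annotated 5′ end. The signal is the authors' own score for a peak, on a scale that is not stated, so values are compared only within a list. The authors made a relaxed list for each replicate and for the pooled replicates, and a short thresholded list from these by the irreproducible discovery rate (IDR), a measure of how well peak ranks repeat. The thresholded list held 47 peaks, which were the 47 strongest of the 30000 pooled peaks. The replicate 1 list held 30000 peaks, 15 of them mitochondrial and left out of its ranks here, and the replicate 2 list held 22869.

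A thresholded peak lay in the window of 6 ribosomal protein genes: *rpl-3*, *rpl-35*, *rpl-15* and *rpl-20* of the large subunit and *rps-1* and *rps-12* of the small subunit. That is 7.69% of the 78 genes (exact 95% binomial interval 2.88% to 16%), where 0.175% of all protein-coding genes, 35 in all, held one. The 6 peaks were separate, so 6 of the 47 thresholded peaks stood at ribosomal protein genes. Their summit regions are shown because they carry the strongest signal of the group. Each is 161 bases of the RefSeq genome (ce11, WBcel235), 80 bases to either side of the summit, read 5′ to 3′ on the strand of the gene. Capitals mark AGTGTA or its reverse complement TACACT.
rpl-3, chrIII:3867477-3867637, plus strand: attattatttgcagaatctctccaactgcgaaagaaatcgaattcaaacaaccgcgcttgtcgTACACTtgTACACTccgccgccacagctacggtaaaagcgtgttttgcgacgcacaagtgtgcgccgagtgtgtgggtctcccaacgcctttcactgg
rpl-35, chrIII:7854580-7854740, plus strand: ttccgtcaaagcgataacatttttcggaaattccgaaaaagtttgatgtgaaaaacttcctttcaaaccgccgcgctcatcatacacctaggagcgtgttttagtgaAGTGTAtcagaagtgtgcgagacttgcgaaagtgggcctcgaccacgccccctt
rps-1, chrIII:4475590-4475750, plus strand: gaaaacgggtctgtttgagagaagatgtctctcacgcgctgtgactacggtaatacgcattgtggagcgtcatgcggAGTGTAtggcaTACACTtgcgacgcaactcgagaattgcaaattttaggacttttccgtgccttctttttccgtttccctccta
rpl-15, chrIV:654845-655005, minus strand: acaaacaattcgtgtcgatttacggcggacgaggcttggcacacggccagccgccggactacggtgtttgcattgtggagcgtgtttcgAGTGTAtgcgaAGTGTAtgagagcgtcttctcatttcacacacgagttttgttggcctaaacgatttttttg
rps-12, chrIII:5679056-5679216, plus strand: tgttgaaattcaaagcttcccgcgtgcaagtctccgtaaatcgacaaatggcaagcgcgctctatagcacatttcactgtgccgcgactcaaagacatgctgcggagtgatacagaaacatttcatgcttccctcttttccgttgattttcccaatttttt
rpl-20, chrIV:4749985-4750145, minus strand: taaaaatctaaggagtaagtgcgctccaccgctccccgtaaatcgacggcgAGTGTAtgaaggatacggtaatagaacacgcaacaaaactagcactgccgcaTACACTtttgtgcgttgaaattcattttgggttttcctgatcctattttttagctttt

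The word in capitals came from counting all words of 6, 7 and 8 letters on both strands of these 6 regions. This search was made after the peaks had been seen. The 6-letter words AAGTGT and AGTGTA were tied at 5 of the 6 regions, and AGTGTA was marked because it was rarer in the pooled list. AAGTGTA (or TACACTT) was the only 7-letter word found in 5 of the 6 regions, the exception being *rps-12*. Among all 777 different 7-letter words in the 6 regions, none was in all 6. It lay within 80 bp of the summit of 1 of the 41 other thresholded peaks (2.44%). In the whole pooled list, these 6 peaks included, it lay that near to 742 of 30000 summits (2.47%). The form AAGTGTAT was in 4 of the 6 regions, in 0 of the 41 other thresholded peaks and in 0.81% of pooled peaks. The inner word AGTGTA, which AAGTGTA contains, was in the same 5 regions, in 3 of 41 others (7.32%) and in 5.97% of pooled peaks. AAGTGT, the other inner word, was in 6 of 41 others (14.6%) and in 10.6% of pooled peaks.

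Every copy of AGTGTA in the 5 regions was centred within 30 bp of the summit. The regions of *rpl-3*, *rps-1*, *rpl-15* and *rpl-20* each held 2 copies and that of *rpl-35* held 1. At *rpl-3* and *rpl-15* both copies pointed the same way, and at *rps-1* and *rpl-20* they pointed in opposite directions. A match of letters is a description and not a site.

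Some longer runs were also shared. The longest run common to each of the 15 pairs of regions was between 8 and 14 bp, with a median of 10 bp. The longest joined *rps-1* and *rpl-15*, both of which hold gcattgtggagcgt in the direction of the gene. That 14-base run has 2 copies in the nuclear genome, counted on both strands, and they are these 2. The run ccgtaaatcgac was in the regions of *rps-12*, *rpl-20* and, reversed, *rpl-15*. It has 1316 copies in the nuclear genome, was in 0.147% of pooled peak regions and in none of the 41 other thresholded peak regions.

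The 6 regions also differed from typical pooled peaks in composition. Their G and C content had a median of 47.2% and ran from 42.2% to 50.3%. The other thresholded peaks had a median of 47.8% and the pooled peaks one of 36%, so a high value was shared with the rest of the thresholded list. In the 500 bp upstream of their first 5′ end, the 78 genes had a median of 33.7% and all genes 33.8%. The part of composition in the shared words was not tested.

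Upstream of the other ribosomal protein genes AAGTGTA was uncommon. It lay in the 500 bp upstream of 2 of the 72 genes with no thresholded peak (2.78%), *rpl-38* and *rpl-5*, where 7.94% of all protein-coding genes had it. Both of these held a pooled peak outside the 1000 strongest, and none of the 29 genes with no pooled peak had the word. The shorter AAGTGT lay upstream of 17 of the 72 genes (23.6%), against 28.6% of all protein-coding genes. Of the 1585 protein-coding genes with AAGTGTA upstream, 8 held a thresholded peak (0.505%, against 0.175% of all genes). A pooled peak was held by 614 of them (38.7%, close to the 39.1% of all genes). The 8 were the 5 ribosomal protein genes, the genes *K11H12.8* and *Y17G9B.5* that share the peaks of *rpl-15* and *rpl-20*, and *cdc-48.1*, a gene for an AAA-type ATPase. The word was picked from the peaks that all of these but *cdc-48.1* hold, so the 0.505% is raised by construction.

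The word AAAGTTT, the core that vertebrate Myt1 proteins are known to bind, was counted in the same way. It was in 1 of the 6 regions (*rpl-35*), in 1 of the 41 other thresholded peaks (2.44%) and in 12.3% of pooled peaks. Its inner letters AAGTT were in 1 of the 6, in 12 of the 41 (29.3%) and in 49.4% of pooled peaks.

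Among the large subunit genes, *rpl-3* had the strongest peak. It encodes a protein that reaches toward the peptidyl transferase centre of the ribosome. Its signal was 65.1 in the pooled list, 49.4 in replicate 1 and 18 in replicate 2. The pooled peak, at chrIII:3867417-3867696, ranked 4 among all pooled peaks, and no protein-coding window held a higher pooled signal, the highest outside the ribosomal protein genes being 61.3. It ranked 5 among the nuclear peaks of replicate 1 and 22 in replicate 2, so both replicates had it near the top, and its summit lay 297 bp upstream of the annotated 5′ end.

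The *rpl-35* peak (chrIII:7854520-7854799), 474 bp upstream of a gene for a protein at the rim of the exit tunnel, was uneven between replicates. Its signal was 43.2 in the pooled list (rank 14), 28.2 in replicate 1 (rank 19) and 9.87 in replicate 2 (rank 350). The *rpl-15* peak (chrIV:654785-655064) lay 349 bp upstream and ranked most alike in the replicates among the 6. Its signal was 34.0 pooled (rank 23), 23 in replicate 1 (rank 37) and 16 in replicate 2 (rank 42). The *rpl-20* peak (chrIV:4749925-4750204) lay 287 bp upstream, with 31.1 pooled (rank 30), 12.7 in replicate 1 (rank 1643) and 15.5 in replicate 2 (rank 49). Here replicate 2 had the peak near its top and replicate 1 did not.

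Of the small subunit genes, *rps-1*, which encodes the protein called eS1, had the stronger peak (chrIII:4475530-4475809), 248 bp upstream. Its signal was 42.5 pooled (rank 15), 19.1 in replicate 1 (rank 93) and 26.1 in replicate 2 (rank 6). The *rps-12* peak (chrIII:5678996-5679275) lay 162 bp upstream, with 31.6 pooled (rank 27), 12.7 in replicate 1 (rank 1631) and 15.1 in replicate 2 (rank 56). As at *rpl-20*, the high pooled rank went with a high rank in replicate 2 alone. In all 6 cases each replicate had a peak whose summit lay within 60 bp of the pooled summit.

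These peaks are not assigned to the ribosomal protein gene by anything but distance. The *rps-1* summit also lay in the window of *ifet-1*, which encodes a partner of the translation factor eIF4E, and the *rpl-15* summit in that of *K11H12.8*. For *rps-12* and *rpl-20* another gene was nearer: *ska-3*, a spindle and kinetochore gene, with its 5′ end 131 bp from the summit, and *Y17G9B.5*, 175 bp away. Counting a peak only for the nearest 5′ end left 4 of the 6 genes, and the share of all genes went from 0.175% to 0.12%. None of the 161-base regions overlapped an exon of a protein-coding gene in the Ensembl annotation. In the RefSeq annotation the *rps-1* region overlapped 2 exons, both of unclassified non-coding RNA genes, *F56F3.10* and *F56F3.11*, and the other regions overlapped none.

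All 6 genes lie on chromosomes III and IV. Chromosome III holds 18 ribosomal protein genes, 4 of them with a thresholded peak (22.2%, against 0.530% of all genes there). Chromosome IV holds 17, of which 2 had one (11.8%, against 0.152%). The other 43 ribosomal protein genes, on chromosomes I, II, V and X, held none. The shares of all genes there were 0.0347%, 0.261%, 0.04% and 0.146%, and a count of 0 in so few genes cannot be told from these. The share over all 78 ribosomal protein genes was higher, 7.69%. Whether their split between chromosomes exceeds counting error was not tested.

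**Figure D1:**
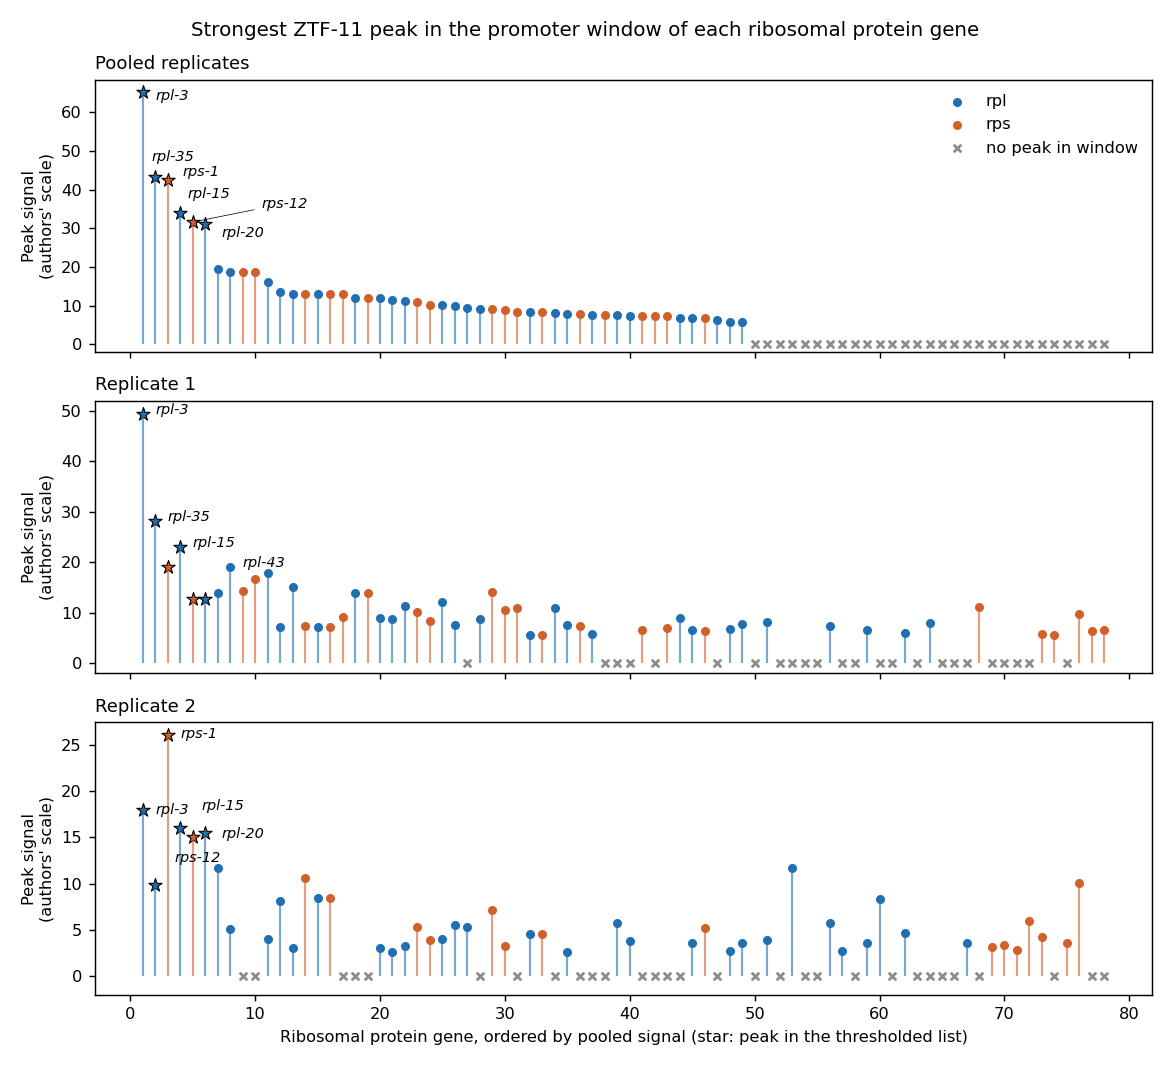
Strongest peak signal in the window of each of the 78 ribosomal protein genes (authors' scale, vertical axis), ordered by pooled signal, in the pooled list and in each replicate; stars are genes with a thresholded peak and grey crosses genes with no peak in the window. The 6 starred genes stood at 31.1 or above in the pooled list and the next gene at 19.5, while in each single replicate other genes lay among or above the lower stars.

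Below the 6 there was a gap. The next pooled signals were 19.5 at *rpl-12*, 18.8 at *rpl-43*, 18.7 at *rps-20*, 18.7 at *rps-0* and 16.1 at *rpl-29*, and with these 11 of the 78 genes (14.1%) held one of the 1000 strongest pooled peaks. In all genes the share was 2.21%. At *rpl-12*, a gene for a protein at the base of the ribosomal stalk, the signal was 13.9 in replicate 1 and 11.6 in replicate 2, and the summit lay 30 bp downstream of the 5′ end, in a window shared with *lin-54*. *lin-54* encodes the DNA-binding subunit of the DREAM complex.

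The other 4 were strong in replicate 1 and weak or absent in replicate 2. The signal at *rpl-43* was 19.1 in replicate 1 and 5.10 in replicate 2, and that at *rpl-29* was 17.9 and 4.08. At *rps-20* it was 14.4 and at *rps-0* 16.7 in replicate 1, and neither had a window peak in replicate 2. The replicate 2 peak at *rpl-29* did not overlap the pooled one: its summit lay 290 bp upstream and the pooled summit 863 bp upstream. For all 4 the nearest 5′ end belonged to another gene: *Y48B6A.1* at 291 bp, *B0513.4* at 41 bp, *ekl-4* at 155 bp and *rbg-3* at 104 bp. By nearest 5′ end, 5 of the 11 remained, while the share of all genes went only from 2.21% to 1.83%.

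Any pooled peak, weak ones included, lay in the window of 49 of the 78 genes (62.8%, interval 51.1% to 73.5%). The share of all protein-coding genes was 39.1%, with windows of the same median length of 1201 bp. In replicate 1 the count was 54 (69.2%, against 39.3% of all genes) and in replicate 2 it was 48 (61.5%, against 28.1%). A peak in both replicates, not necessarily at the same place, was held by 36 genes (46.2%, against 12.8%). At 21 genes the strongest peaks of the replicates overlapped (26.9%, against 4.04%). The share of ribosomal protein genes stood above that of all genes in each of these counts. These intervals cover counting error only and treat genes as independent.

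With a gene lacking a peak counted as 0, the median pooled signal of the 78 genes was 7.43, and that of all genes was 0 with a 75th percentile of 7.33. The corresponding medians of the 78 genes were 7.19 in replicate 1 and 3.25 in replicate 2, and all genes again had 0 in both. The 7.43 includes genes without a peak, so it is not comparable with the median over the peaks of the pooled list, which was 7.71. Among genes with a pooled peak the median was 10.1 for ribosomal protein genes and 8.11 for all genes.

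The −log10 q value that the authors gave with each peak reached only 0.629 in replicate 1, so by that column no replicate 1 peak would pass a q of 0.05. In replicate 2 it ran from 2.58 to 3.57 and in the pooled list it reached 2.12. Counts in replicate 1, and in the pooled list made with it, carry this doubt. The excess of the 78 genes over all genes was also present in replicate 2 alone.

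The pooled peaks did not all recur in the replicates. Of the 49 genes with a pooled peak, 30 had a window peak in both replicates, 13 in replicate 1 only, 3 in replicate 2 only and 3 in neither. The strongest replicate peak overlapped the pooled peak at 39 genes in replicate 1 (79.6%, against 58.7% over all genes with a pooled peak) and at 24 in replicate 2 (49%, against 21.3%). It did so in both at 18 genes (36.7%, against 8.75%). Of the 29 genes without a pooled peak, 20 had one in a replicate list, 6 of them in both. The remaining 9, *rpl-4*, *rpl-10*, *rpl-13*, *rpl-17*, *rpl-18*, *rpl-22*, *rpl-28*, *rpl-34* and *rpl-42*, had no window peak in any list, and all 9 are large subunit genes.

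**Figure D2:**
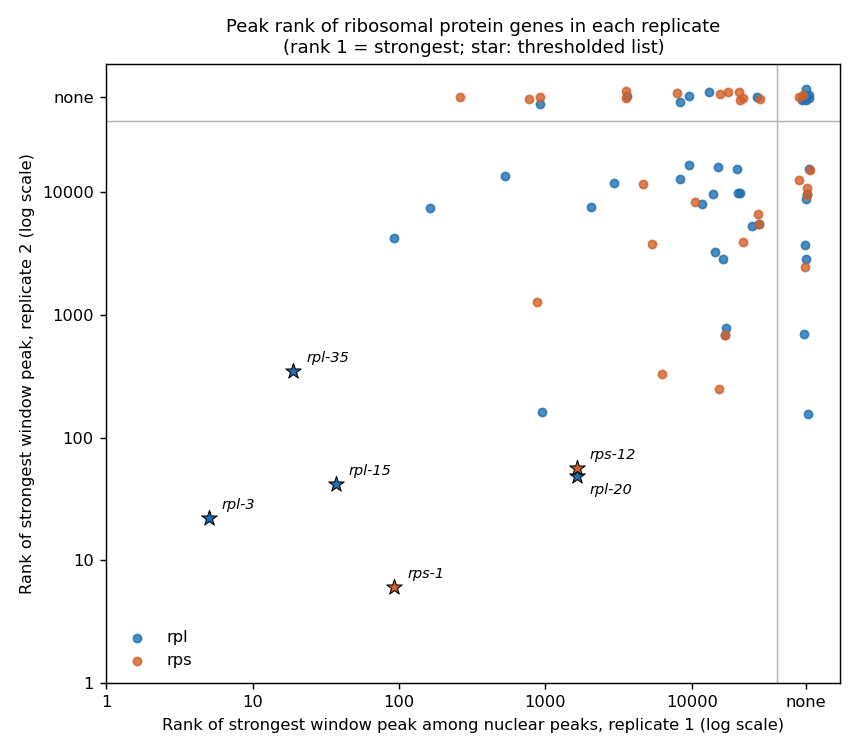
Rank of the strongest window peak of each ribosomal protein gene in replicate 1 (nuclear peaks, horizontal) and replicate 2 (vertical), both on a log scale with rank 1 the strongest; genes with no window peak are set in the strips marked none, with random scatter there only. The 3 genes nearest the lower left corner, *rpl-3*, *rpl-15* and *rps-1*, ranked within the first 100 in both replicates.

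If each replicate had been cut at its own 47 strongest nuclear peaks, 3 ribosomal protein genes would have been taken from each. Replicate 1 gives *rpl-3*, *rpl-35* and *rpl-15*, and replicate 2 gives *rps-1*, *rpl-3* and *rpl-15*. Both sets hold *rpl-3* and *rpl-15*. Strong window peaks of replicate 2 without a pooled window peak were found at *rpl-16* (signal 11.7, rank 156) and *rps-6* (10.04, rank 330), genes named here after their values were seen.

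Many of these peaks are shared with neighbours. The 49 genes had 46 distinct summits, since *rpl-24.1* and *rps-10* (13.0), *rps-30* and *rpl-39* (12.1), and *rps-14* and *rpl-36* (8.23) each share one. The last 2 of these summits lie between the 5′ ends of divergent genes, and the first lies 195 bp downstream of the 5′ end of *rpl-24.1* and 805 bp upstream of that of *rps-10*. A summit also in the window of another protein-coding gene was found for 32 of the 49 (65.3%), where the share among all genes with a pooled peak was 22.5%. The ribosomal protein gene had the nearest 5′ end in 32 of 49 cases.

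The summits lay mostly upstream of the 5′ end but near it. Of the 49 strongest pooled summits, 31 (63.3%) were more than 100 and up to 500 bp upstream, against 35.1% of 7804 over all genes. Another 9 (18.4%, against 35.4%) were farther upstream and 9 (18.4%, against 29.5%) were within 100 bp or downstream. The median over the 49 was 301 bp upstream, and over the 7804 it was 325 bp. It was 394 bp for *rpl* and 269 bp for *rps* genes.

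**Figure D3:**
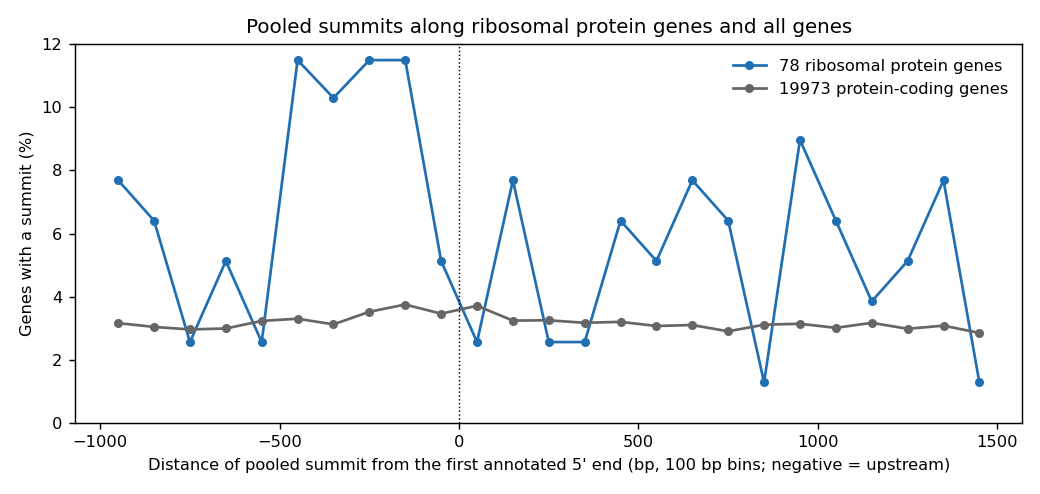
Share of genes with a pooled summit in each 100 bp bin around the first annotated 5′ end (horizontal axis in bp, negative values upstream) for the 78 ribosomal protein genes and all 19973 protein-coding genes. Between 500 and 100 bp upstream 10.3% to 11.5% of the ribosomal protein genes had a summit in each bin, against 3.12% to 3.75% of all genes. The share was also above that of all genes in 14 of the other 21 bins, at up to 8.97%, and 1 gene is 1.28% of the 78.

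Some strong pooled peaks near ribosomal protein genes lay outside the window, on the far side of the gene, and were looked for after the data had been seen. The strongest was at *rpl-27*, 168 bp past its 3′ end, with a pooled signal of 25.3 (rank 49). It was in replicate 2 at 26.3 (rank 5) and absent from replicate 1, and it lay in the windows of *egl-30*, which encodes a Gq alpha subunit, and *C53H9.4*. At *rpl-17*, one of the 9 genes with no window peak, a peak of 20.1 (rank 119) lay 149 bp past the 3′ end. It had 15.2 in replicate 1 but only 2.06 (rank 22158) in replicate 2, and it lay in the window of *Y48G8AL.7*. None of these was counted for the ribosomal protein gene.

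In the thresholded and pooled lists the large and small subunit genes had similar shares. A thresholded peak was held by 4 of 47 *rpl* genes (8.51%) and 2 of 31 *rps* genes (6.45%), and one of the 1000 strongest by 7 (14.9%) and 4 (12.9%). A pooled peak was held by 29 *rpl* (61.7%) and 20 *rps* genes (64.5%). The difference, *rpl* minus *rps*, was -2.81 percentage points with a 95% Newcombe interval from -23.1 to 18.8, so differences of up to that size in either direction lie within counting error. The replicates pointed opposite ways, with 63.8% of *rpl* and 77.4% of *rps* genes in replicate 1 and 66.0% and 54.8% in replicate 2. A window peak in at least 1 of the pooled and replicate lists was held by 38 of 47 *rpl* genes (80.9%) and all 31 *rps* genes (100%), against 60.7% of all genes. This split was noticed after the values were seen and was not tested. The median pooled signal, with a gene lacking a peak counted as 0, was 7.39 for *rpl* and 7.71 for *rps* genes. Among genes with a pooled peak the order was the other way, 10.1 and 9.61.

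The 13 genes with a snoRNA gene inside held 19 such genes, of 346 annotated, all on the host's strand and outside its exons. They include *rpl-15* and *rps-12*, each with a thresholded peak, and the next highest was *rpl-7A*. The signal at *rpl-7A* was 13.5 in the pooled list (rank 1150), 7.17 in replicate 1 and 8.11 in replicate 2, with the pooled summit 9 bp downstream of the 5′ end, in a window shared with *set-21*. A thresholded peak was thus held by 2 of 13 hosts (15.4%) and by 4 of the 65 other genes (6.15%). A pooled peak was held by 10 hosts (76.9%) and 39 others (60%), a difference of 16.9 points with an interval from -12.4 to 36.1. In each replicate alone the hosts had the lower share: 61.5% against 70.8% in replicate 1 and 53.8% against 63.1% in replicate 2. The median pooled signal, with a gene lacking a peak counted as 0, was 7.34 in hosts and 7.48 in the others. Among genes with a pooled peak it was 8.39 and 10.2. The interval spans 0 and the direction was not the same in the pooled and the single lists, so hosts and other genes were not told apart.

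**Figure D4:**
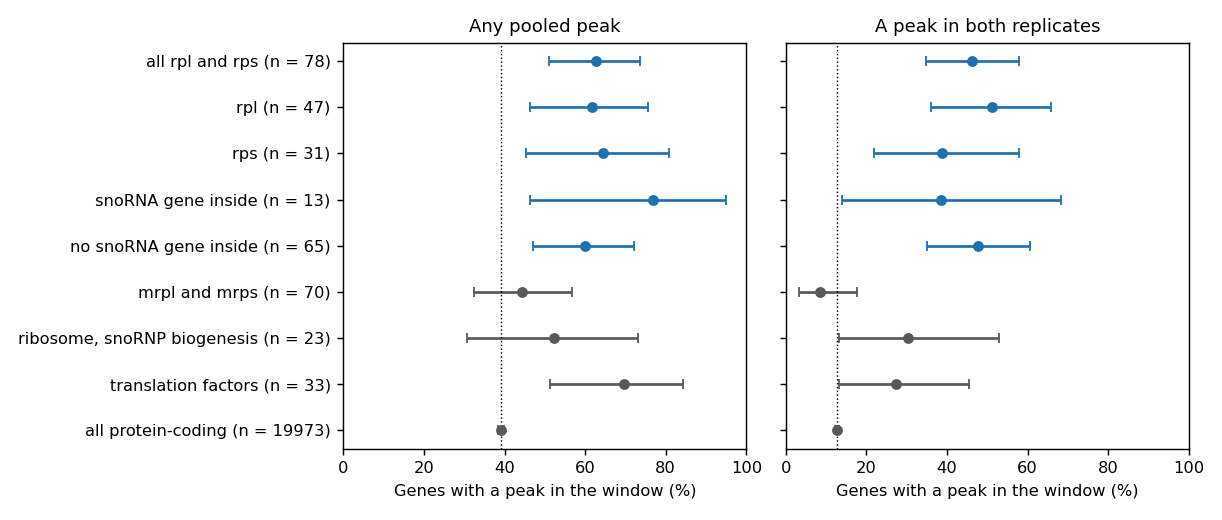
Share of genes with any pooled peak (left) and with a peak in both replicates (right) in ribosomal protein genes, their subgroups and 3 other gene lists; bars are exact 95% binomial intervals and the dotted line is the share of all 19973 protein-coding genes (39.1% and 12.8%). All 5 blue intervals lie above the dotted line in both panels, and so does that of the translation factors. The interval of ribosome and snoRNP biogenesis lies above it in the right panel only, and that of the mitochondrial ribosomal proteins crosses it in both.

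Other genes of protein synthesis were set beside them. None of the 70 genes for mitochondrial ribosomal proteins (*mrpl* and *mrps*) held a thresholded peak. One of the 1000 strongest lay at *mrps-18A* (15.8), a pooled peak at 31 (44.3%) and a peak in both replicates at 6 (8.57%), all lower shares than in the cytoplasmic set. Among 6 other proteins of the cytoplasmic ribosome or fused to one, no gene held a thresholded peak and 4 held a pooled peak, the highest at *ubq-2* with a signal of 13.8.

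Of 23 genes listed for ribosome and snoRNP assembly and related functions, 12 held a pooled peak (52.2%), 7 a peak in both replicates (30.4%) and 1 a thresholded peak. The last was *larp-1*, a La-related RNA-binding protein gene on chromosome III, not itself named for assembly, and no other gene of the list held one. Its pooled signal was 29.0 (rank 39), 635 bp upstream. The signal was 13.3 in replicate 1 (rank 1277, mitochondrial peaks counted) and 14.05 in replicate 2 (rank 72). Next came *nola-3*, for a subunit of the H/ACA snoRNP, with 19.0. Of 33 translation factor genes, 23 held a pooled peak (69.7%), 9 a peak in both replicates (27.3%) and 1, *iff-2* for the factor eIF5A, a thresholded peak of 27.2 (rank 47). Below it stood *ife-3* with 23.9, *eef-1G* with 20.5 and *eef-1A.2* with 20.5. The replicates were uneven here too. At *iff-2* the signal was 11.35 in replicate 1 (rank 3100, mitochondrial peaks counted) and 15.7 in replicate 2 (rank 45). *ife-3* had no window peak in replicate 1 and 11.1 in replicate 2. At *eef-1G* and *eef-1A.2* it was 15.7 in replicate 1, and 5.03 and 5.48 in replicate 2. The pooled share of the translation factors was thus as high as that of the ribosomal protein genes. So was their share with one of the 1000 strongest pooled peaks, 5 of 33 (15.2%) against 14.1%, where the assembly list had 2 of 23 (8.7%). Their thresholded share was 1 of 33 against 6 of 78. No test was made between these lists.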

How the data were processed

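ChIP-seq peak lists of eGFP-tagged ZTF-11 from whole L4 larvae were used, 1 group of 2 biological replicates numbered as in the labels, with fragments of 150 to 350 bp per the labels. Per the descriptions deposited with the lists, the authors called relaxed peaks per replicate and on both replicates pooled, with control alignments, and made an IDR-thresholded list. Aligner and peak caller were not given in the sources used here, and the control alignments were not analysed here. The signal value of each peak was deposited by the authors without its scale. The −log10 q value deposited by the authors was used only to describe the lists. Depth is unknown, because read counts are not in the lists.

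The 4 lists in ce11 were used; those in ce10 were not used, since no ce10 annotation was at hand. Genes came from Ensembl release 115 (WBcel235) and sequence from the RefSeq genome. Positions count from 1. A gene was given the strongest peak with its summit from 1000 bp upstream to 200 bp downstream of any 5′ end, and a summit counted for every gene whose window held it. Genes are not replicates of a condition, so shares are descriptions and no test was made. Intervals are Clopper-Pearson for shares and Newcombe for differences. Ribosomal protein paralogs with near-identical copies may share reads, depending on the aligner.

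The ribosomal protein genes and the other gene lists were chosen with earlier results of these data known. Genes named are those with a thresholded or one of the 1000 strongest pooled peaks, the 5 highest in each replicate, the 3 highest snoRNA hosts, and up to 3 below the threshold per other list, besides those said to be named after their values were seen. Of 26 genes in the assembly list 23 matched the annotation, and of 34 translation factors 33. Alternatives were other windows, peak overlap, the nearest 5′ end, other numbers of strongest peaks and each replicate alone. The assignment of summits to genes was checked on simulated peaks. Scripts ran in Python 3.11.15 with pandas 2.3.3, numpy 2.4.6, matplotlib 3.10.9 and, for intervals, scipy 1.17.1.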

Additional observations from a re-analysis of the deposited data

How the results depend on the processing

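Across 47 combinations of result and alternative, 26 kept their value within the limits set, 12 moved and 9 turned in direction. The share of ribosomal protein genes stayed above that of all genes in each alternative for the thresholded, strongest, pooled and both-replicate counts. The thresholded count of 6 was 10 among the 200 strongest pooled peaks, one of which 0.641% of all genes held. It was 3 with either replicate left out. The share of all genes was then 0.195% without replicate 1 and 0.0851% without replicate 2. The count of 11 among the 1000 strongest was 17 among the 2000 strongest (3.88% of all genes) and 5 by the nearest 5′ end only (1.83%). The pooled share of 62.8% was 14.1% for the 1000 strongest peaks, 29.5% for the 5000 strongest and 79.5% with a window of 2000 and 500 bp. Over all genes these shares were 2.21%, 8.54% and 60.1%, where the reported one was 39.1%. By the nearest 5′ end only, the pooled share was 51.3%, against 35.1% of all genes. The share with a peak in both replicates, 46.2%, was 11.5% for the 5000 strongest of each and 32.1% by the nearest 5′ end. It was 73.1% with 2000 and 500 bp and 25.6% with 500 and 100 bp. Over all genes these were, in that order, 1.27%, 10.8%, 29.3% and 5.05%, where the reported share was 12.8%. These alternatives change by construction how many peaks count, how wide the window is or to how many genes a summit counts.

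The difference between *rpl* and *rps* genes, -2.81 points, became 1.99 for the 1000 strongest peaks, 0.755 for the 5000 strongest, 6.73 by peak overlap, 8.79 with 2000 and 500 bp and 1.58 with 500 and 100 bp. With each replicate alone it ran from -13.6 to 11.1. The difference between snoRNA hosts and other genes, 16.9 points, became -3.08 with 2000 and 500 bp and was -9.23 in either replicate alone. The cause was not tested. The number of genes limits both differences, and with 2 replicates and no read counts, weak peaks cannot be told from noise in the lists.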
